A study of Mus musculus with 6 samples.

Results

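The Wnt ligands, their receptors and their modulators were followed as 60 genes among the 20040 entries of an mRNA-seq table from cultured mouse cortical neurons. Members were taken by name and not by their values: every Wnt ligand and frizzled receptor, the Sfrp, Dkk and R-spondin families, and 20 named co-receptors, inhibitors, relay proteins and transcription factors. Of the 60 genes, 46 averaged at least 0.5 TPM over the 6 libraries and were tested, and 14 lay below that level and are given mainly as values. Levels are in TPM, a unit in which each library adds up to 1000000 after correction for gene length.

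KO and WT cells were neurons from embryonic day 18 cortex on a C57BL/6 background, 3 libraries labelled KDM6B knockout (KO) and 3 labelled wild type (WT). Per the labels, the cells were dissociated with papain, plated in a medium with horse serum and kept in Neurobasal A with a supplement. The comparison asks which transcripts differ between KO and WT neurons, where Kdm6b encodes a histone demethylase acting on the repressive H3K27 methyl mark. The labels do not say which part of Kdm6b was deleted, in which cells, for how many days the neurons were cultured or whether replicates were separate cultures, so the spread behind each p-value may be technical.

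Wnt proteins are secreted, lipid-modified signals that bind frizzled receptors on nearby cells. Together with the co-receptors Lrp5 and Lrp6 they stabilise beta-catenin, which enters the nucleus and acts with TCF and LEF factors, while other Wnts act through Ror and Ryk receptors or through planar cell polarity proteins. In the developing forebrain the pathway is known for patterning the dorsal cortex, for regulating progenitors and for guiding axons and dendrites.

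Recovered read counts added up to between 19761714 and 23503660 in KO libraries and between 20728295 and 22679025 in WT libraries. Kdm6b stood at 11.2, 11.1 and 12.0 TPM in KO libraries, against 30.9, 30.3 and 30.7 TPM in WT libraries, so its transcript was reduced and not absent. The 4 Y-linked genes tested summed to between 0.149 and 0.754 TPM in KO libraries and between 91.0 and 93.9 TPM in WT libraries, and Xist averaged 231.5 ± 8.34 TPM in KO and 74.0 ± 3.49 TPM in WT (SD, n = 3 each). Genotype and this difference in sex-linked transcripts cannot be told apart in any result that follows, although no Wnt member lies on the X or Y chromosome. Neuronal markers were abundant, with a summed level of 4927 to 4965 TPM in KO and 4960 to 5035 TPM in WT, but markers of glia were too, with astrocyte and radial glia genes summing to 4134 to 4304 TPM in KO and 3919 to 4143 TPM in WT. Fabp7 was the largest part of the glial sum, at 2743 ± 76.7 TPM in KO and 2509 ± 89.5 TPM in WT (SD, n = 3 each). Of those 8 glial markers, Fabp7 and Slc1a3 rose, Vim and Aldh1l1 fell, and 4 did not pass the test. Over all tested genes, 4.15% were called higher and 6.74% lower. In a second fit, made on recovered counts, 2 of the 8 were higher and 4 lower, with Gfap and Aqp4 also lower. That second fit called 7.9% of all tested genes higher and 9.56% lower. In these bulk libraries, fewer cells of a type and less RNA per cell cannot be told apart.

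Between KO and WT neurons, 7 Wnt members differed at an adjusted p below 0.05 in limma, a linear model fitted over all 14983 tested genes. Sfrp1, Wnt7a, Rspo3, Fzd1 and Sfrp2 rose, and Wnt5a and Wnt9a fell. The changes spanned 75.2% to 156.4% of the WT mean. No gene of the cytoplasmic relay, of the feedback inhibitors or of the TCF and LEF factors passed in limma or with voom, a limma fit on recovered counts. None of these 13 had an unadjusted p below 0.05 in limma, beside a background of 26.5% of all tested genes. At a background of 10.9% called, few calls are to be looked for among 13 genes, so their absence says little. The 7 calls are 15.2% of the 46 tested members, beside a background of 10.9% of all tested genes called in either direction, 4.15% higher and 6.74% lower in KO. With voom 10 members passed, 8 higher and 2 lower, beside backgrounds of 17.5% in all, 7.9% higher and 9.56% lower. After median centring or quantile normalization 5 members were called higher and 1 lower. With WT replicate 1 left out, 4 members were called (Fzd1, Rspo3, Sfrp1 and Wnt7a).

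Across the 46 tested members the median log2 fold change was -0.018, beside -0.019 over all tested genes. The median size of the change without its sign was 0.11 on the log2 scale for members and 0.084 for all genes. The median standard error (SE) also differed, at 0.091 for members and 0.059 for all genes. Neither these sizes nor the 1.1-fold shares that follow are therefore directly comparable. Group means differed by at least 1.1-fold for 21 of the 46 (45.7%), beside a background of 35.3%. KO and WT libraries did not overlap for 13 members, which is 28.3% of those tested, beside a background of 31.7%. KO libraries were all above WT libraries for 9 of the 46 tested members, beside a background of 12.5% of all tested genes. They were all below for 4 of the 46, beside a background of 19.2%. Before adjustment, 9 of the 46 members had p below 0.05 in limma, a smaller share than the background of 26.5% for that rule.

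**Figure D1:**
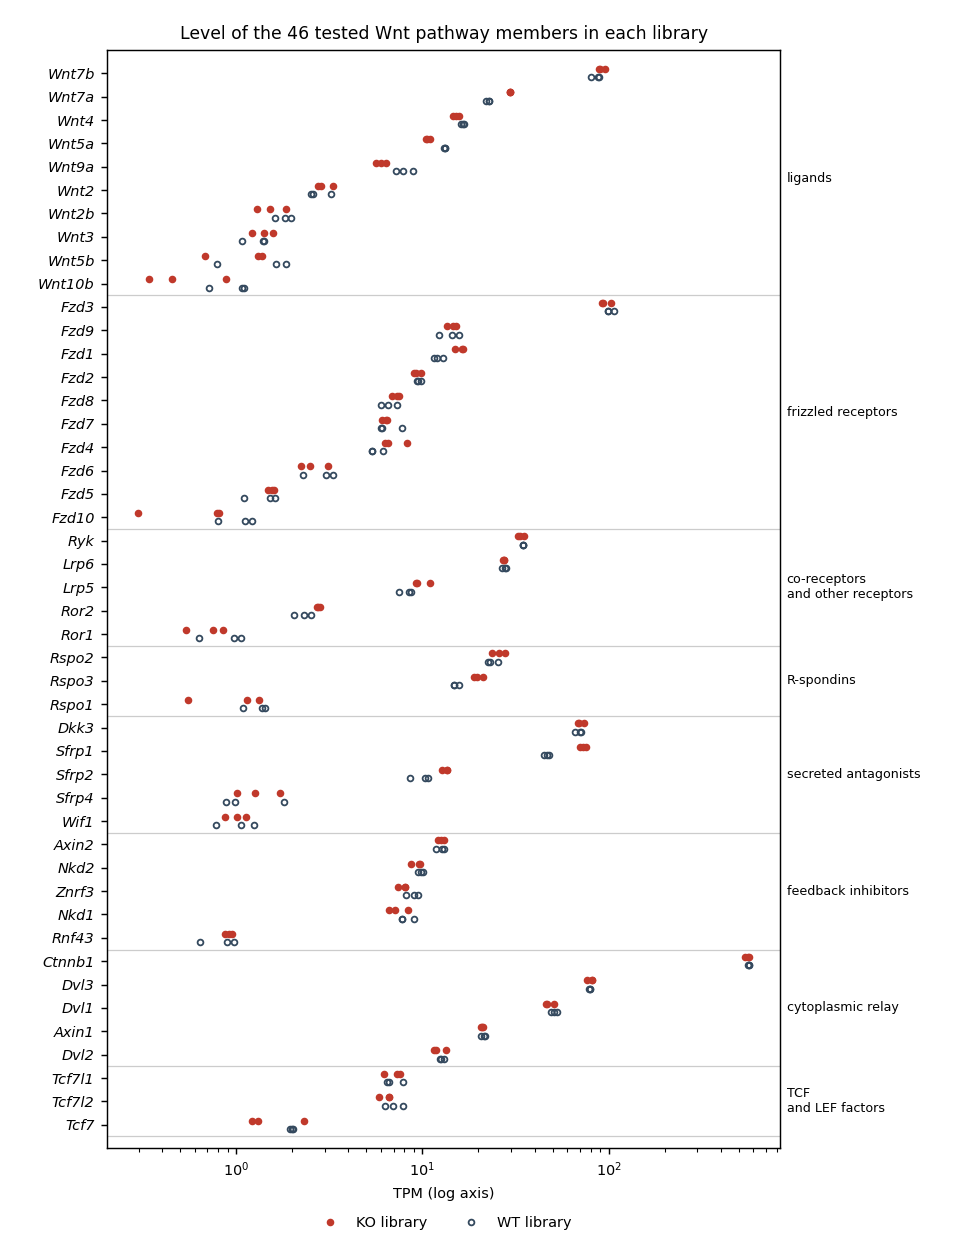
Level of each of the 46 tested Wnt pathway members in TPM on a log axis, grouped by role and ordered by mean within a role; filled points are KO libraries and open points WT libraries, 3 each. Levels run from Ctnnb1, at 542.4 TPM or more in every library, down to Wnt10b, Ror1, Fzd10 and Rnf43 near 1 TPM, and the distance between genes is far larger than that between KO and WT libraries of a gene.

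Among the 19 ligands, 10 were tested, Wnt7a rose, Wnt5a and Wnt9a fell, and 7 did not pass. Wnt7b and Wnt7a, paralogous ligands known for roles in dendrite growth, synapse formation and, from neural progenitors, brain vessel growth, were the most abundant. Wnt7b made up 56.4 ± 1.195% of the summed ligand TPM in KO and 55.1 ± 1.15% in WT, and Wnt7a made up 18.2 ± 0.31% in KO and 14.5 ± 0.14% in WT (SD, n = 3 each). All 19 ligands summed to 160.5, 161.3 and 164.9 TPM in KO libraries and to 158.0, 157.6 and 149.3 TPM in WT libraries.

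Wnt7a (ENSMUSG00000030093.7, chr6:91363981-91411363 on the minus strand of GRCm38) had 29.6, 29.4 and 29.4 TPM in KO libraries, against 22.7, 22.8 and 21.9 TPM in WT libraries. The KO values lay close together and all above the WT values. The KO mean was 1.31-fold the WT mean, with a log2 fold change of 0.38 ± 0.04 (SE, n = 3 each) and an adjusted p of 0.0012 in limma. Wnt7a kept its call in each of the 15 other settings and left-out libraries tried.

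Wnt5a, the ligand best known for signalling through Ror receptors and planar cell polarity without beta-catenin, moved the other way. Wnt5a (ENSMUSG00000021994.15, chr14:28504750-28527448, plus strand) had 10.6, 11.02 and 10.5 TPM in KO libraries, against 13.3, 13.3 and 13.1 TPM in WT libraries. The groups did not overlap, and the KO mean was 81.0% of the WT mean. Its log2 fold change was -0.29 ± 0.05 (SE, n = 3 each) with an adjusted p of 0.0136 in limma. Without WT replicate 1 the adjusted p was 0.0565, within a range of 0.00178 to 0.0565 over the 15 alternatives, all with the same sign. An antisense gene, Gm2670, overlaps Wnt5a in the annotation, and whether the counting used strand is not given in the sources used here.

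Wnt9a, a less abundant ligand, had 6.39, 5.60 and 6.02 TPM in KO libraries, against 7.86, 8.85 and 7.23 TPM in WT libraries. Every KO value lay below every WT value, with 132 to 203 recovered counts per library. The KO mean of Wnt9a (ENSMUSG00000000126.11, chr11:59306928-59333552, plus strand) was 75.2% of the WT mean, with a log2 fold change of -0.38 ± 0.10 (SE, n = 3 each) and an adjusted p of 0.0427 in limma. That call is the least stable of the 7: the adjusted p was 0.0670, 0.126 and 0.104 without KO replicates 1, 2 and 3, and 0.115 and 0.116 without WT replicates 1 and 2, within a range of 0.00687 to 0.126 over the 15 alternatives. It was also 0.0532 after median centring, 0.0822 after quantile normalization, 0.0783 with no filter on low values and 0.0611 without a variance trend.

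Wnt7b had 89.2, 90.0 and 95.2 TPM in KO libraries, against 88.4, 87.5 and 80.3 TPM in WT libraries. The groups were separate by less than 1 TPM, and the adjusted p in limma was 0.203, with a 95% interval of the log2 fold change from -0.0036 to 0.20. In the count-based fit with voom the same gene passed, at an adjusted p of 0.0353. Wnt4, a ligand linked to beta-catenin-independent signals as well, averaged 15.2 ± 0.560 TPM in KO and 16.4 ± 0.346 TPM in WT (SD, n = 3 each), again without overlap, at an adjusted p of 0.219. Wnt2 averaged 2.97 ± 0.289 TPM in KO and 2.78 ± 0.379 TPM in WT, with an interval of -0.23 to 0.40 on the log2 scale. The remaining tested ligands, Wnt2b, Wnt3, Wnt5b and Wnt10b, averaged between 0.557 and 1.80 TPM in either group and had overlapping libraries.

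Among the Wnt ligands, 4 pairs of genes are close neighbours. Wnt9a lies 16.2 kb from the divergently oriented Wnt3a on chromosome 11, and Wnt3a had 6 counts over the 3 KO libraries and 1 count over the 3 WT libraries. Wnt3, tested and uncalled, lies 24.3 kb from Wnt9b, which averaged 0.0736 TPM in KO and 0.0819 TPM in WT. Wnt10b lies 11.7 kb from Wnt1, for which 1 count was recovered in KO libraries and 0 counts in WT libraries. Wnt6 and Wnt10a, 6.19 kb apart on chromosome 1, were both below the tested range.

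**Figure D2:**
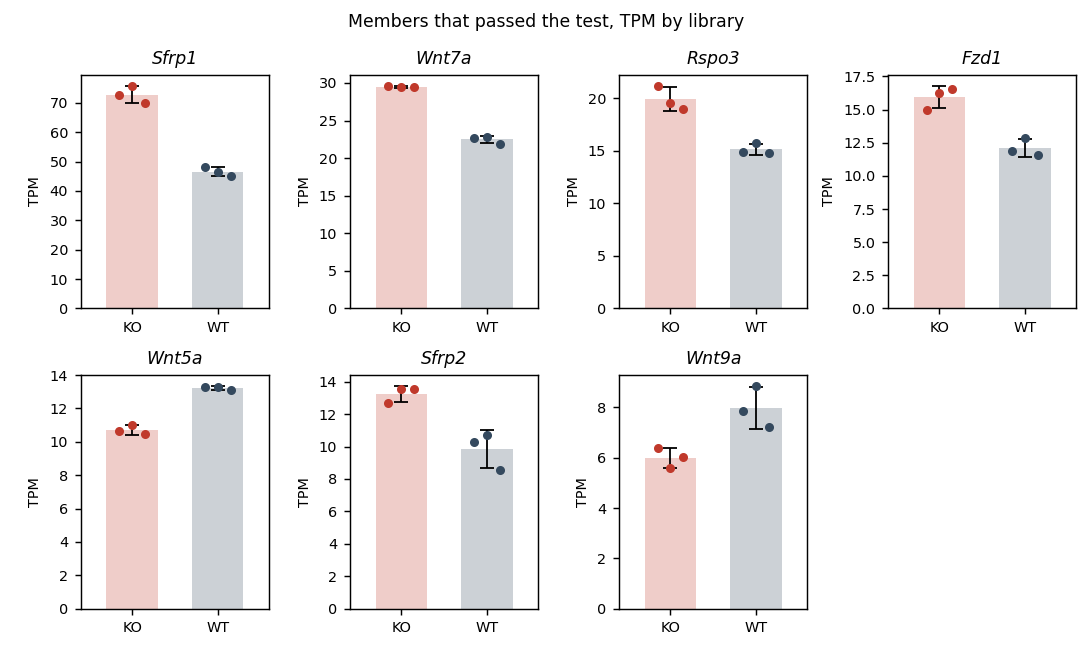
Level in TPM of the 7 Wnt pathway members that passed the test, one panel each with its own axis from 0; points are libraries, bars are means of 3 libraries and error bars are SD, with KO left and WT right. KO points lie above all WT points for Sfrp1, Wnt7a, Rspo3, Fzd1 and Sfrp2 and below them for Wnt5a and Wnt9a.

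Promoters of 4 of these 7 members were held in a RefSeq table of GRCm38.p6, and the 250 bases before the RefSeq transcript start are shown 5′ to 3′ in the sense of the gene because CpG content is a property of the members that their choice did not use. Capitals mark CpG pairs.
Fzd1: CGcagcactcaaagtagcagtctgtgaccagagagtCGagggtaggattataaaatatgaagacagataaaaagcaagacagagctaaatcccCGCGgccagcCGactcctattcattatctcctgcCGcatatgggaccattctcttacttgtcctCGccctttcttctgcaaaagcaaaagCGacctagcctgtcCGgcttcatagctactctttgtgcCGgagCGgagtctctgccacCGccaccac
Sfrp2: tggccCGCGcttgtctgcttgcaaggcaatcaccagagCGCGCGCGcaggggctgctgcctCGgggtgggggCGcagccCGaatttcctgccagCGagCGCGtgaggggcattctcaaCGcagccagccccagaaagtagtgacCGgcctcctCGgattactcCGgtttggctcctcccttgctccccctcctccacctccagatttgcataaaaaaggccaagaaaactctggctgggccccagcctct
Wnt7a: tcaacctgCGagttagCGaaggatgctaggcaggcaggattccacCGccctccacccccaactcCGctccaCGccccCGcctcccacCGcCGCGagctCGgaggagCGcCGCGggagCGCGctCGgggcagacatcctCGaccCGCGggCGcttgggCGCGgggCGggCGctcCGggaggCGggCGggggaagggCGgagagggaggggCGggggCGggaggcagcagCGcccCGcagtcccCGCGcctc
Wnt9a: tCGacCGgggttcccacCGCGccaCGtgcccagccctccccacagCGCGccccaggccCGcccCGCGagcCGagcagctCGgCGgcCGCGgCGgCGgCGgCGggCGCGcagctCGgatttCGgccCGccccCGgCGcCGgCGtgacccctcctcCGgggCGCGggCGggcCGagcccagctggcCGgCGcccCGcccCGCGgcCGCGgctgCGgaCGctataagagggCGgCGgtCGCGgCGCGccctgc
The windows are chr5:4758217-4758466 (minus strand) for Fzd1, chr3:83766071-83766320 (plus) for Sfrp2, chr6:91411354-91411603 (minus) for Wnt7a and chr11:59306680-59306929 (plus) for Wnt9a. RefSeq starts can differ from the GENCODE spans given for the genes, as they do for Fzd1. The Fzd1 window holds 12 CpG pairs, and 33.5% of all 32851 promoter windows of this length hold at least as many. The Sfrp2 window holds 16 (25.4%), the Wnt7a window 34 (3.53%) and the Wnt9a window 48 (0.186%). Of these 4 members, the ligands Wnt7a and Wnt9a, which moved in opposite directions, had the more CpG-rich windows.

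In all, 43 members were taken from the RefSeq table, with 53 promoter windows. Members on chromosome 18 (Fzd8 and Wnt8a) were left out of the search, while the set of all windows was not restricted in this way. Their median was 21 CpG pairs, beside 6 over all windows, and 46 of the 53 lay above that overall median. The letters CTTTGA, the core of the sequence that TCF and LEF factors bind, were searched on both strands (TCAAAG on the other). They occurred in 6 of the 53 member windows, which is 11.3%, beside 13.8% of all windows. Fzd1 was the only one of the 4 called members shown that held them.

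Among the 10 frizzled receptors, all tested, Fzd1 rose and 9 did not pass. Fzd3, a receptor required for axon tracts through its planar polarity function, dominated the family with 59.6 ± 0.976% of its summed TPM in KO and 63.0 ± 1.85% in WT (SD, n = 3 each). The family sum overlapped between groups, at 156.2 to 169.4 TPM in KO libraries and 159.5 to 165.6 TPM in WT libraries.

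Fzd1, a frizzled receptor that can relay Wnt signals to beta-catenin, had 15.0, 16.3 and 16.6 TPM in KO libraries, against 11.9, 12.9 and 11.6 TPM in WT libraries. All KO values were higher than all WT values. For Fzd1 (ENSMUSG00000044674.6, chr5:4753839-4758035, minus strand) the KO mean was 1.32-fold the WT mean, with a log2 fold change of 0.38 ± 0.07 (SE, n = 3 each) and an adjusted p of 0.00997 in limma, and the call held in all 15 alternatives.

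Fzd4, the receptor for norrin as well as for Wnts in brain vessels, had 8.29, 6.31 and 6.53 TPM in KO libraries, against 6.13, 5.38 and 5.39 TPM in WT libraries. Its groups did not overlap, although KO replicate 1 stood above the others, and its adjusted p was 0.157 in limma and 0.0353 in the count-based fit. Fzd3 averaged 96.2 ± 5.87 TPM in KO and 102.1 ± 4.73 TPM in WT (SD, n = 3 each), with a 95% interval of -0.20 to 0.03 on the log2 scale. Fzd9 averaged 14.4 ± 0.802 TPM in KO and 14.1 ± 1.69 TPM in WT. Fzd2 averaged 9.36 ± 0.386 TPM in KO and 9.55 ± 0.259 TPM in WT. These 3 receptors had overlapping libraries, as had Fzd5, Fzd6, Fzd7, Fzd8 and Fzd10, which averaged between 0.633 and 7.19 TPM in either group.

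Among the 5 co-receptors and other Wnt receptors, all tested, none passed in limma, 1 had an unadjusted p below 0.05 and the same one, Lrp5, passed with voom. Ryk, an atypical receptor with a role in repelling axons, averaged 33.7 ± 1.49 TPM in KO and 34.7 ± 0.144 TPM in WT (SD, n = 3 each). Lrp6, the main co-receptor of the beta-catenin branch by abundance, averaged 27.3 ± 0.312 TPM in KO and 27.6 ± 0.645 TPM in WT, with an interval of -0.11 to 0.07 on the log2 scale.

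Lrp5, the paralog of Lrp6, had 10.9, 9.27 and 9.30 TPM in KO libraries, against 7.46, 8.48 and 8.63 TPM in WT libraries. The groups did not overlap, the KO mean was 120.0% of the WT mean, and the adjusted p was 0.130 in limma and 0.0130 in the count-based fit. Ror2, a receptor for Wnt5a named here because its groups were seen not to overlap, had 2.70, 2.83 and 2.74 TPM in KO libraries, against 2.51, 2.04 and 2.32 TPM in WT libraries, at an adjusted p of 0.294. Ror1 averaged 0.713 ± 0.162 TPM in KO and 0.891 ± 0.227 TPM in WT, with overlap.

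Among the 4 R-spondins, secreted proteins that amplify Wnt signals by removing Znrf3 and Rnf43 from the membrane, 3 were tested, Rspo3 rose and 2 did not pass. Rspo3 (ENSMUSG00000019880.10, chr10:29452416-29535867, minus strand) had 21.2, 19.6 and 18.9 TPM in KO libraries, against 14.9, 15.8 and 14.7 TPM in WT libraries. KO values were all higher. The KO mean was 1.32-fold the WT mean, with a log2 fold change of 0.38 ± 0.06 (SE, n = 3 each) and an adjusted p of 0.00598 in limma, and the call held in all 15 alternatives. Annotated transcripts Gm48159, on the other strand, and Gm20276, on the same one, overlap the genomic span of Rspo3. Whether they share exons with it was not examined.

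Rspo2 was more abundant, with 27.8, 25.8 and 23.6 TPM in KO libraries and 23.1, 25.4 and 22.4 TPM in WT libraries. Its groups overlapped, and the adjusted p was 0.345. Rspo1 averaged 1.00 ± 0.402 TPM in KO and 1.30 ± 0.179 TPM in WT (SD, n = 3 each). The R-spondins together reached 50.2, 45.97 and 43.9 TPM in KO libraries and 39.3, 42.6 and 38.3 TPM in WT libraries, so the sum did not overlap.

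Among the 8 secreted antagonists, 5 were tested, Sfrp1 and Sfrp2 rose and 3 did not pass. Secreted frizzled-related proteins carry a frizzled-like domain that binds Wnts outside the cell. The antagonists summed to 161.8, 161.9 and 155.6 TPM in KO libraries, against 132.2, 126.8 and 127.1 TPM in WT libraries, and most of that gap came from Sfrp1, which made up 45.6 ± 1.097% of the sum in KO and 36.2 ± 0.692% in WT (SD, n = 3 each).

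Sfrp1 (ENSMUSG00000031548.7, chr8:23411502-23449632, plus strand) had 72.8, 75.9 and 69.9 TPM in KO libraries, against 48.1, 46.6 and 45.02 TPM in WT libraries. Its lowest KO library stood far above its highest WT library. The KO mean was 1.56-fold the WT mean, with a log2 fold change of 0.64 ± 0.04 (SE, n = 3 each) and an adjusted p of 0.000195 in limma. This was the largest change among the tested members that passed, it rested on 6926 recovered counts in KO and 4385 in WT, and it held in all 15 alternatives.

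Sfrp2 (ENSMUSG00000027996.13, chr3:83766321-83774316, plus strand) had 12.7, 13.5 and 13.5 TPM in KO libraries, against 10.3, 10.7 and 8.53 TPM in WT libraries. The groups did not overlap, and WT replicate 3 was the lowest. The KO mean was 1.35-fold the WT mean, with a log2 fold change of 0.42 ± 0.09 (SE, n = 3 each) and an adjusted p of 0.0241 in limma. The adjusted p was 0.0521, 0.0798 and 0.0830 without KO replicates 1, 2 and 3 and 0.0584 without WT replicate 1, and 0.0571 without a variance trend, within a range of 0.00195 to 0.0830 over the 15 alternatives. An antisense gene, Gm26771, overlaps Sfrp2 in the annotation.

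Dkk3, a divergent member of the Dickkopf family, was about as abundant as Sfrp1 in KO but did not pass: it averaged 70.7 ± 2.56 TPM in KO and 68.9 ± 2.69 TPM in WT (SD, n = 3 each), with an interval of -0.06 to 0.13 on the log2 scale. Wif1, a secreted Wnt-binding inhibitor, averaged 1.00 ± 0.129 TPM in KO and 1.03 ± 0.239 TPM in WT. Sfrp4 averaged 1.33 ± 0.361 TPM in KO and 1.22 ± 0.511 TPM in WT. Frzb, the relative also called Sfrp3, is outside the naming rule and was looked at after its values were seen: it averaged 4.97 ± 0.986 TPM in KO and 5.52 ± 0.218 TPM in WT, at an adjusted p of 0.531.

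**Figure D3:**
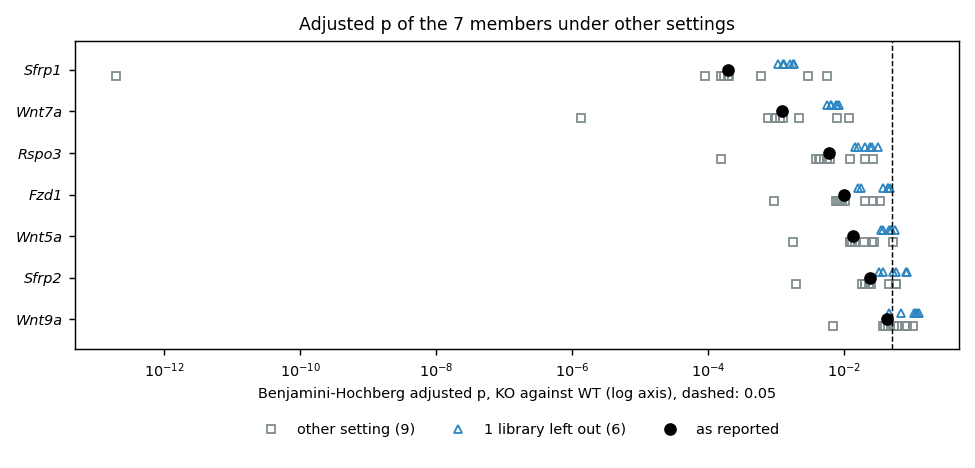
Benjamini-Hochberg adjusted p of the 7 called members on a log axis, with the reported value as a filled circle, 9 other settings as squares and the 6 fits without 1 library as triangles; the dashed line is 0.05. Sfrp1, Wnt7a, Rspo3 and Fzd1 lie left of the line in all 15 alternatives, and Wnt5a, Sfrp2 and Wnt9a cross it in some.

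Markers of meningeal fibroblasts were higher in KO. Of the called Wnt members, Sfrp1, Wnt7a, Rspo3, Fzd1 and Sfrp2 were higher too, while Wnt5a and Wnt9a were lower. All 6 meningeal markers listed had KO libraries above WT libraries, beside a background of 12.5% of all tested genes. In limma 3 of the 6 rose (Dcn, Lum and Col1a1), beside a background of 4.15% called higher. Their summed level was 46.5 to 59.8 TPM in KO libraries and 36.0 to 37.0 TPM in WT libraries. Lum, a matrix proteoglycan, had 3.43, 2.99 and 3.94 TPM in KO libraries, against 0.946, 0.976 and 0.899 TPM in WT libraries. Those Lum values rested on 49 to 54 recovered counts per KO library and 14 per WT library. The part of meningeal cells in these results, and that of the glial markers given above, was not tested. Of 6 microglial markers, Csf1r, P2ry12, C1qa, Tmem119 and Cx3cr1 averaged below 0.5 TPM over the 6 libraries, and Aif1 averaged 0.697 TPM. Of 6 endothelial markers, Cldn5, Flt1 and Tek averaged below 0.5 TPM, and Pecam1, Cdh5 and Kdr above it. Also below it were the thalamic genes Gbx2, Lhx9 and Pou4f1 and the cortical hem genes Lmx1a, Lhx1 and Lhx5.

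Other marker lists moved in part. Over all tested genes, 4.15% were called higher and 6.74% lower in limma, and 7.9% and 9.56% with voom. In the cortical hem and Cajal-Retzius list, Reln rose and the other 3 tested did not pass, with a sum of 235.6 to 237.0 TPM in KO and 212.2 to 226.4 TPM in WT. In the thalamic list Ntng1 rose, Slc17a6 fell and the other 2 tested did not pass in limma, while with voom 2 were higher and 2 lower. The thalamic sum was 32.8 to 38.9 TPM in KO and 47.1 to 49.8 TPM in WT. Its lower level in KO rested on Slc17a6, which averaged 3.71 ± 0.650 TPM in KO and 23.3 ± 2.27 TPM in WT (SD, n = 3 each). Ntng1 averaged 14.0 ± 0.931 TPM in KO and 6.92 ± 0.203 TPM in WT. In the endothelial list Kdr fell, Pecam1 and Cdh5 did not pass, and with voom 1 was higher (Cdh5) and 1 lower. The endothelial sum was 7.58 to 8.51 TPM in KO and 10.4 to 11.9 TPM in WT, of which Kdr averaged 5.62 ± 0.576 TPM in KO and 9.21 ± 0.828 TPM in WT (SD, n = 3 each). Cdh5 averaged 0.877 ± 0.498 TPM in KO and 0.328 ± 0.267 TPM in WT. Of 8 neuronal markers Tubb3 and Dcx rose, and Slc17a7, Gad1 and Rbfox3 fell. With voom 3 of the 8 were higher and 3 lower. Tubb3 averaged 1959 TPM in KO and 1751 TPM in WT, and Dcx 209.5 and 184.4 TPM. Slc17a7 averaged 268.6 TPM in KO and 479.8 TPM in WT, Gad1 226.3 and 305.6 TPM, and Rbfox3 86.1 and 98.9 TPM. The neuronal sums given above join these rises and falls. None of 5 dividing-cell markers passed in limma (2 at an unadjusted p below 0.05, 1 lower with voom), and none of 4 tested choroid plexus markers did (0 at an unadjusted p below 0.05, 0 with voom). The part of these cell types in the Wnt results was not tested.

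**Figure D4:**
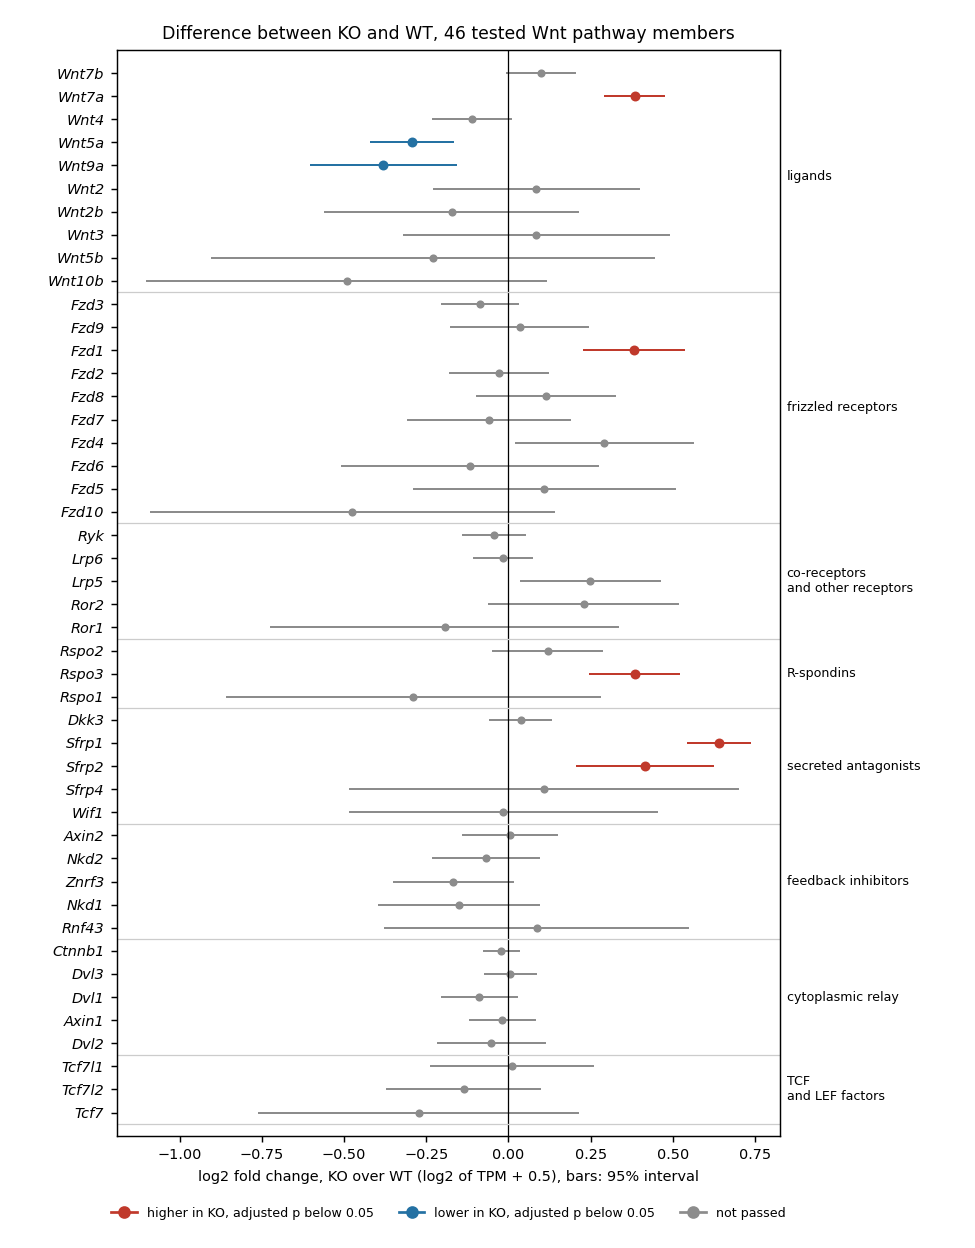
Log2 fold change of KO over WT for the 46 tested members on the log2(TPM + 0.5) scale, with bars for the 95% interval; red marks members higher in KO and blue members lower in KO at an adjusted p below 0.05, and grey those that did not pass. Intervals are narrow for the cytoplasmic relay around 0 and wide for genes near 1 TPM such as Wnt10b and Fzd10.

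Among the 5 feedback inhibitors, genes that dampen the pathway and of which several are induced by it, none passed in limma. Axin2, a scaffold of the beta-catenin destruction complex and a widely used readout of beta-catenin activity, had 12.1, 13.1 and 12.6 TPM in KO libraries, against 13.1, 11.9 and 12.7 TPM in WT libraries. The groups overlapped, with a log2 fold change of 0.003 and an interval of -0.14 to 0.15. Nkd2, which binds dishevelled, averaged 9.33 ± 0.559 TPM in KO and 9.79 ± 0.317 TPM in WT (SD, n = 3 each).

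Znrf3, a membrane ubiquitin ligase that removes frizzled receptors, had 7.43, 8.07 and 8.06 TPM in KO libraries, against 8.20, 9.01 and 9.45 TPM in WT libraries. KO values were all lower, but the adjusted p was 0.223 in limma. Nkd1 averaged 7.36 ± 0.914 TPM in KO and 8.21 ± 0.734 TPM in WT (SD, n = 3 each), with overlap. Rnf43, which R-spondins also remove from the membrane, was near 1 TPM in both groups.

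In the cytoplasmic relay none of 5 genes passed, and all 5 group means were within 1.1-fold of each other. Ctnnb1, which encodes beta-catenin, averaged 556.6 ± 12.4 TPM in KO and 564.9 ± 6.18 TPM in WT (SD, n = 3 each), with an interval of -0.08 to 0.03 on the log2 scale. Of the dishevelled genes, whose products pass the signal on from frizzled, Dvl3 averaged 79.5 ± 2.98 TPM in KO and 79.2 ± 0.851 TPM in WT, and Dvl1 averaged 47.9 ± 2.59 TPM in KO and 51.0 ± 2.14 TPM in WT. Dvl2 and the scaffold Axin1 also overlapped between groups. The beta-catenin transcript says nothing of the protein's stability, which is where the pathway is regulated.

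Of the 4 TCF and LEF factors, 3 were tested and none passed. Tcf7l1 averaged 7.04 ± 0.709 TPM in KO and 6.995 ± 0.772 TPM in WT (SD, n = 3 each). Tcf7l2, the factor known for its thalamic expression, averaged 6.37 ± 0.450 TPM in KO and 7.06 ± 0.777 TPM in WT, with an interval of -0.37 to 0.09 on the log2 scale. Tcf7 averaged 1.61 ± 0.610 TPM in KO and 1.99 ± 0.0429 TPM in WT. Lef1 was below the tested range at 0.279 TPM in KO and 0.213 TPM in WT.

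The 14 members below the 0.5 TPM filter were Wnt1, Wnt3a, Wnt6, Wnt8a, Wnt8b, Wnt9b, Wnt10a, Wnt11, Wnt16, Rspo4, Sfrp5, Dkk1, Dkk2 and Lef1. The highest of their means over the 6 libraries was 0.459 TPM, and none had more than 64 recovered counts in all. Wnt8a had 0 counts in every library, which allows a level of up to 0.217 to 0.260 TPM per library at 3 counts and its annotated exon length of 1746 nt, for counting error only. In limma with no filter on low values 13 of the 14, all but Wnt8a, entered the fit, and 0 passed (adjusted p 0.300 to 0.925) and 0 had an unadjusted p below 0.05. Dkk4 is not analysed here.

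Beyond the members, 60 further genes of the pathway were taken from textbook roles, of which 56 were tested. Of these, 3 rose and 8 fell, which is 19.6% beside the background of 10.9%, and their median log2 fold change was -0.010. After median centring 5 were higher and 7 lower, and after quantile normalization 4 were higher and 6 lower. With voom 10 were higher and 9 lower, which is 33.9% beside a background of 17.5%. KO and WT libraries did not overlap for 27 of the 56 (48.2%), beside a background of 31.7%. Before adjustment, 25 of the 56 had p below 0.05 in limma, beside a background of 26.5%. Group means differed by at least 1.1-fold for 16 of the 56 (28.6%), beside a background of 35.3%. By role, with Lgr5 and Apcdd1 counted in a pair of roles each, 2 secretion genes tested gave no call in limma or with voom (both had an unadjusted p below 0.05, with lower KO means), 15 surface modulators gave 2 higher and 3 lower, 13 genes of beta-catenin turnover gave 1 lower, 10 nuclear partners gave 1 lower, 12 planar cell polarity genes gave 2 lower and 6 known beta-catenin targets gave 1 higher and 1 lower.

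Draxin, a secreted axon repellent that also inhibits Wnt signalling by binding Lrp6, had 15.7, 17.4 and 17.0 TPM in KO libraries, against 10.8, 11.4 and 9.82 TPM in WT libraries. The KO mean was 1.57-fold the WT mean, without overlap, at an adjusted p of 0.00187 in limma. Sostdc1, a secreted inhibitor of Wnt and BMP signals, had 7.72, 5.99 and 6.82 TPM in KO libraries, against 3.36, 3.47 and 4.49 TPM in WT libraries. All KO values were higher here too, and the adjusted p was 0.00993.

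Gpc3, a glypican of the cell surface, had 11.7, 13.1 and 14.9 TPM in KO libraries, against 21.2, 20.5 and 19.0 TPM in WT libraries. The KO mean was 65.5% of the WT mean at an adjusted p of 0.00501 in limma. Gpc3 lies on the X chromosome, as does Gpc4, which also fell (adjusted p 0.0180 in limma). For both, as for every result here, genotype and the difference in sex-linked transcripts cannot be told apart. The adjusted p of Gpc4 was 0.0579 without KO replicate 1, 0.0693 without KO replicate 3 and 0.0621 without WT replicate 1, within a range of 1.31e-05 to 0.0693 over the 15 alternatives.

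Of the planar cell polarity genes, Prickle2 averaged 80.6 ± 0.807 TPM in KO and 94.1 ± 1.39 TPM in WT (SD, n = 3 each), at an adjusted p of 0.00201 in limma. Daam2, a formin that binds dishevelled, averaged 18.0 ± 0.298 TPM in KO and 23.0 ± 1.39 TPM in WT, at an adjusted p of 0.00685. The co-repressor Tle3, which occupies TCF factors in the absence of beta-catenin, averaged 42.9 ± 2.42 TPM in KO and 53.8 ± 1.80 TPM in WT, at an adjusted p of 0.00536. These 3 genes fell.

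Of the genes that beta-catenin can activate, among many other inputs, Myc and Ccnd1 moved in opposite directions. Myc averaged 41.7 ± 1.15 TPM in KO and 32.5 ± 0.526 TPM in WT (SD, n = 3 each), at an adjusted p of 0.00131 in limma. Ccnd1, which encodes cyclin D1, averaged 61.5 ± 2.29 TPM in KO and 73.1 ± 3.17 TPM in WT, at an adjusted p of 0.00969. Kremen1, a receptor for Dickkopf proteins, and Apc, a scaffold of the destruction complex, fell at adjusted p-values of 0.0368 and 0.0466, but both lost the call whichever library was left out, at 0.0593 to 0.115 for Kremen1 and 0.0837 to 0.142 for Apc; their ranges over all alternatives were 0.00579 to 0.115 and 0.00191 to 0.154.

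**Figure D5:**
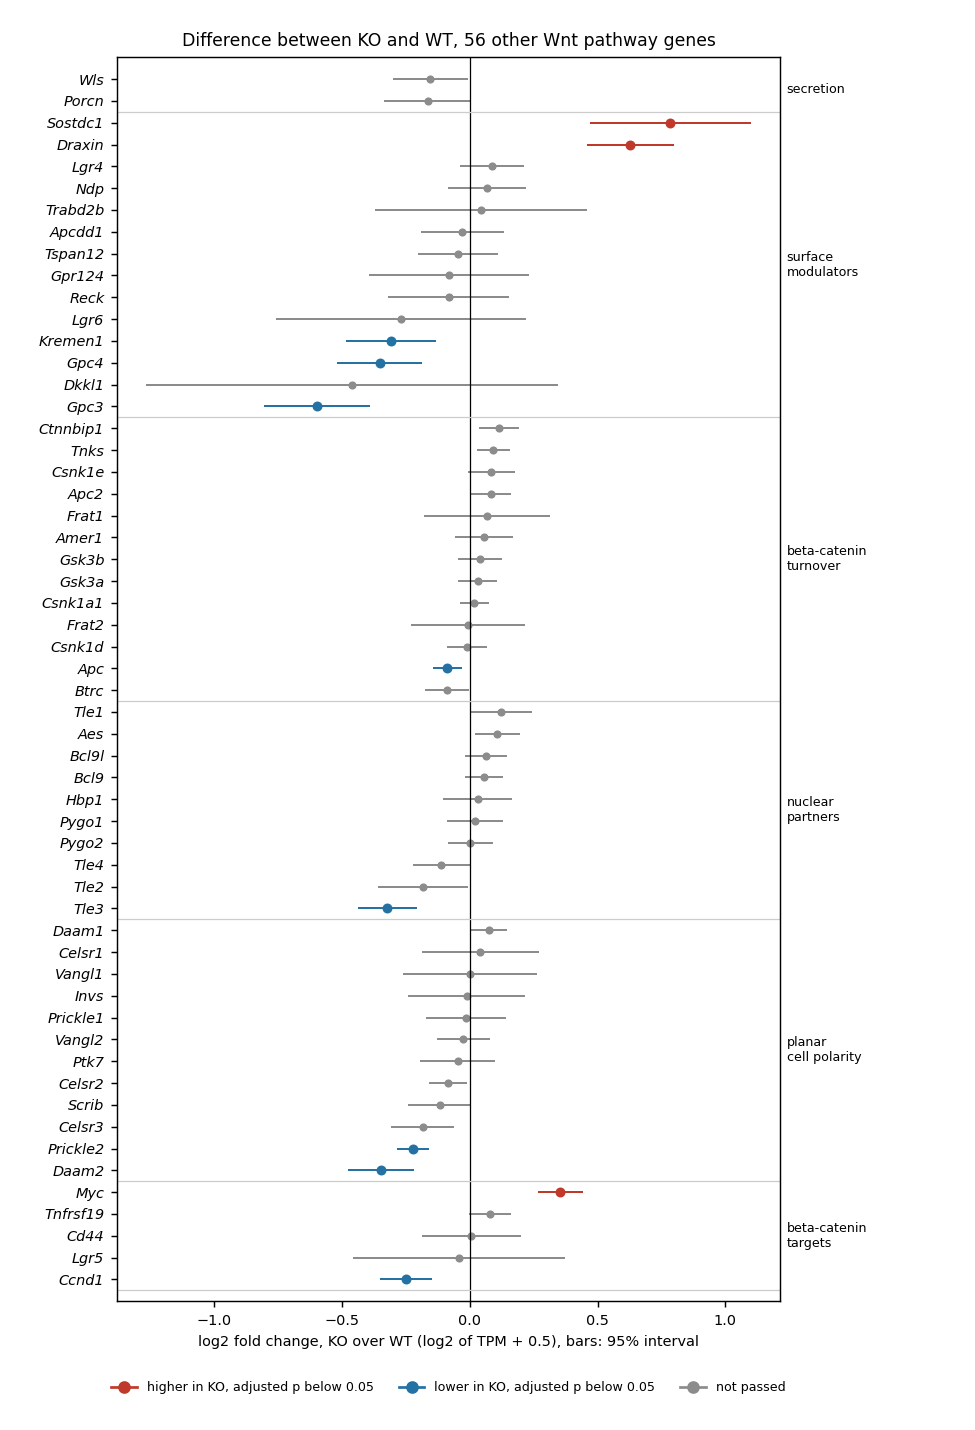
Log2 fold change of KO over WT for the 56 further Wnt pathway genes tested, on the log2(TPM + 0.5) scale with 95% intervals, grouped by role; red is higher in KO and blue lower in KO at an adjusted p below 0.05. Sostdc1, Draxin and Myc stand to the right of 0, and Gpc3 is the farthest to the left of the genes that passed.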

How the data were processed

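mRNA was measured in 6 libraries, 3 KO and 3 WT, per the labels. The deposited values are in TPM, 1 column per library, although the table's name says FPKM: each column sums to 1000000. The tools named, with no role or order, are edgeR, featureCounts, Picard 1.127, TopHat, FastQC 0.11.2 and bcl2fastq 2.17, and the build is mm10, per the submitters' processing notes. Annotation and strand setting are not given in these sources. TPM shares a library-wide total, so a rise of abundant genes lowers all others.

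Within a library, TPM multiplied by gene length came out as whole multiples of a single step for all 19369 entries above 0 (100%, tolerance 0.001 counts plus 2e-08 of the value), which gave smallest whole counts. A factor shared by all libraries of a gene cannot be seen. One count was worth 0.126 to 0.151 TPM at 1 kb. No library was a copy of another: within a group, the median chi-square was 1.26 to 2.00 times what counting error gives.

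KO was compared with WT by limma 3.58.1 in R 4.3.3 on log2(TPM + 0.5) with a variance trend, without covariates, for genes averaging 0.5 TPM or more, with Benjamini-Hochberg adjustment over all 14983. The added 0.5 understates changes of low genes. Fold and percent of WT in the text are ratios of group means. The procedure was tested on simulated data. No set test was made. Alternatives were other pseudocounts (0.1 and 1), filters (none, 2 TPM), centring, quantile normalization, no variance trend, voom on recovered counts, a replicate block and each library left out.

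Members, lists and tests were chosen with earlier results of these data known. Values are given for members that passed, for the 3 most abundant of each role that did not, and for those with an unadjusted p below 0.05; further pathway genes are named for the 8 smallest p-values that passed, and the other 3 that passed are named in addition. Gene positions are those of GENCODE M21 (GRCm38, the build of mm10), and promoters those of RefSeq (GRCm38.p6).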

Additional observations from a re-analysis of the deposited data

How the results depend on the processing

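Of 105 results for the 7 called members (15 alternatives each), 87 kept direction and call, 18 kept direction only and 0 reversed; 4 members (Sfrp1, Wnt7a, Rspo3 and Fzd1) kept the call throughout. The 7 member calls became 4 with the replicate block and 4 to 7 with 1 library left out, the 4 being without WT replicate 1. The 1632 calls over all genes became 1064 without a variance trend, 2615 with voom, 945 with the replicate block and 838 to 1118 with 1 library left out (838 without WT replicate 1, 943 and 954 without KO replicates 2 and 3, 1053 and 1051 without KO replicate 1 and WT replicate 2). The share of calls that were higher was 38.1% (622 higher, 1010 lower), against 53.1% (867 and 767) after median centring and 49.2% (788 and 813) after quantile normalization. The 11 calls among further pathway genes became 19 with voom and 8 to 10 with 1 library left out. The median log2 fold change of members, -0.018, was -0.0066 under a 2 TPM minimum, 0.0032 without one, 0.015 after quantile normalization, 0.0080 after median centring, -0.0071 with voom and -0.035 to -0.013 with 1 library left out; that of all genes was -0.019 as reported and 0.0069 after median centring. The cause was not tested. Deviations of same-numbered KO and WT libraries correlated at 0.0077, -0.051 and 0.011, so no pairing by replicate number was seen. With 3 libraries a group these correlations cannot show that same-numbered libraries were unpaired. Under the replicate block Wnt5a, Sfrp2 and Wnt9a had adjusted p-values of 0.0521, 0.0581 and 0.102. The 14 members below the filter had at most 64 recovered counts each, and with 3 libraries a group small differences can be missed.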
